A study of Mus musculus with 18 samples.

Results

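The antiviral interferon-stimulated genes described here are 39 named mouse genes, chosen by symbol as antiviral effectors, nucleic acid sensors and STAT and IRF factors of the interferon response, with the interferon-induced GTPases of the IRG and GBP families and the MHC genes left out. Of the 39, 37 had a row in the deposited table, which holds 20612 gene symbols, and 35 passed a filter on low values that kept 11890 symbols for testing. Mx1 and Mx2 were not analysed here. The reference annotation of GRCm38.p6 classes both as transcribed pseudogenes, and the deposited table is limited to protein-coding genes. Oas2 and Oas3 had rows but stayed below the filter, so their values are given without a test.

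RNA was measured in muscle stem cells (MuSCs) from 4-month-old mice, kept in T cell conditional medium (day 0) or moved to differentiation medium for 1 or 2 days. WT cells came from wild-type semi-cloned mice, made by injecting haploid embryonic stem cells into oocytes. TKO cells came from semi-cloned mice heterozygous for mutations in Dmpk, Six5 and Mbnl1, and QKO cells from mice that also carried a heterozygous mutation in Dmwd. All 3 genotypes, WT included, descended from haploid cells with deletions of the H19-DMR and the IG-DMR, imprinting control regions that the donor line needs to give live pups. Each of the 9 groups of genotype and day had 2 libraries, 18 in all, and the mutant mice are a model of myotonic dystrophy type 1. The labels do not say whether the libraries of a group were separate cultures or animals, so p-values measure the spread between libraries, which may be technical. The medium changed together with the day, and the effects of medium and of differentiation cannot be told apart.

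Interferons are secreted proteins that bind receptors at the cell surface and act through JAK kinases and STAT factors. Type I interferons lead to a complex with STAT2 and IRF9 that binds the interferon-stimulated response element (ISRE), and interferon-gamma acts through the gamma-activated site (GAS). The genes switched on this way block virus entry, degrade or sense viral RNA, starve viruses of nucleotides, and feed back on the pathway itself. They are named for their response to interferon, but many are also transcribed at some level without it.

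Values are RPKM, read counts scaled to gene length in kilobases and to the mapped reads of the library. Tests used limma on log2(RPKM + 1) with 9 group means over all 18 libraries, and p-values were adjusted by the Benjamini-Hochberg method over the 11890 genes within each comparison. A gene is said to have risen or fallen where its adjusted p was below 0.05. Log2 fold changes refer to log2(RPKM + 1), which understates the change of genes near or below 1 RPKM, and are given ± SE. The depth that the steps between RPKM values gave was 34.8 to 60.7 M mapped reads per library, so that 1 read on 1 kb was worth 0.0165 to 0.0288 RPKM. The WT day 0 libraries stood apart from the other 16 in positional genes: Hoxb2 was at 10.2 to 17.5 RPKM in them and at 0 to 0.507 elsewhere, and Hoxc10 at 0.68 to 0.793 against 14.4 to 34.2. WT day 0 replicate 2 also differed from WT day 0 replicate 1 by gene length, with a median log2 difference of 0.68 in the shortest of 10 length classes of genes and -0.60 in the longest. As a check of the labels at day 0, Dmpk measured 237 and 341 RPKM in WT, 146 and 145 in QKO, and 203 and 196 in TKO, and Six5 was lower in both mutants without overlap. Dmwd measured 64.8 and 81.1 RPKM in WT, 38.2 and 28.7 in QKO, and 60.7 and 55.5 in TKO. Mbnl1 overlapped between the genotypes, at 7.23 to 18.9 RPKM in WT, 12.1 to 17.1 in QKO and 16.9 to 21 in TKO, so its RNA level checks nothing. The Hox and length differences of the WT day 0 libraries enter every contrast that uses these libraries. Those are WT against mutant at day 0, WT days 1 and 2 against day 0, and the tests of genotype with day. The part of the Hox difference in the results below was not tested. With the trend by gene length removed, 26 of the antiviral genes fell in TKO and 18 in QKO against WT at day 0. Without that step 26 and 20 fell. Of all tested genes 11.9% and 18.6% fell with the trend removed. Muscle identity held in every library, with Myod1 at 342 RPKM or more, while 12 of 16 immune cell markers stayed below 0.5 RPKM throughout. The pan-leukocyte marker Ptprc reached at most 0.0171 RPKM and the plasmacytoid dendritic cell marker Siglech was at 0 in all libraries. The immune markers that went above 0.5 RPKM were Laptm5, Itgam, Cd68 and Lyz2. Their highest values were 7.75, 5.85, 3.16 and 1.42 RPKM. In bulk RNA, fewer cells that express a gene and less RNA of it per cell cannot be told apart.

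The members were read as sequences first, because several of them carry the textbook interferon elements close to their start. Members with and without the ISRE core are set side by side further below. RefSeq promoters of GRCm38.p6, from 250 bases before to 50 bases after the start, were at hand for 30 of the 37 members with a row. The ISRE core, GAAA followed by 2 bases of any kind and GAAA, searched on both strands, stood in the promoters of 14 members, and 3.63% of all tested genes with a promoter held it. The palindromic GAS motif TTCNNNGAA stood in 8 members, against 8.30% of all promoters. The windows below show the motif in capitals and are written 5′ to 3′ on the strand that carries it. Isg15 is shown because its promoter held 3 overlapping ISRE cores, of which the middle is printed (chr4:156200871-156200900, centred at -67 from the start, gene on the minus strand). Bst2 (chr8:71537577-71537606, centred at -119, minus strand) and Oas1a (chr5:120907520-120907549, centred at -9, minus strand) are among the members that fell most. Rsad2 (chr12:26456553-26456582, centred at -115, on the strand opposite to the gene) is shown because it held a core and was not among them. Irf1 (chr11:53769914-53769943, centred at -86, plus strand) had a GAS motif and no ISRE core. In Bst2 an upstream GAS motif overlapped another ISRE core, and it is the last sequence (chr8:71537589-71537618, centred at -132).
Isg15: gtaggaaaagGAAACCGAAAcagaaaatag
Bst2: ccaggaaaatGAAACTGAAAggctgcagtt
Oas1a: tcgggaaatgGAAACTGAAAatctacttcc
Rsad2: tctgttttctGAAAATGAAAgttggaccag
Irf1: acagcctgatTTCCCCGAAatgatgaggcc
Bst2 GAS: tctaggggcaTTCCAGGAAaatgaaactga

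Before differentiation, most of the measured antiviral genes were lower in mutant MuSCs than in WT MuSCs. In TKO cells 26 of the 35 tested members fell at day 0 and 1, Oasl1, rose. Among all tested genes 10.2% fell and 12.8% rose in the same comparison. The median log2 fold change was -1.27 over the tested members and 0.01 over all tested genes. In QKO cells 20 members fell and 1 rose, again Oasl1, against 18.1% and 17.3% of all tested genes, and the member median was -0.70 against -0.01. The 2 comparisons share the WT libraries. A member could pass the filter through its WT day 0 level alone, which was the case for 3 of the 35, Oas1a, Dhx58 and Ifi44. All 3 are among those that fell in TKO, and their passing the filter depended on a high WT level. With no filter they fell in TKO too (limma adjusted p = 0.000173, 0.0135 and 3.99e-07). Oasl1, in turn, passed through the mutant day 0 groups alone. These counts therefore describe the tested members and not the whole list of 39.

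**Figure D1:**
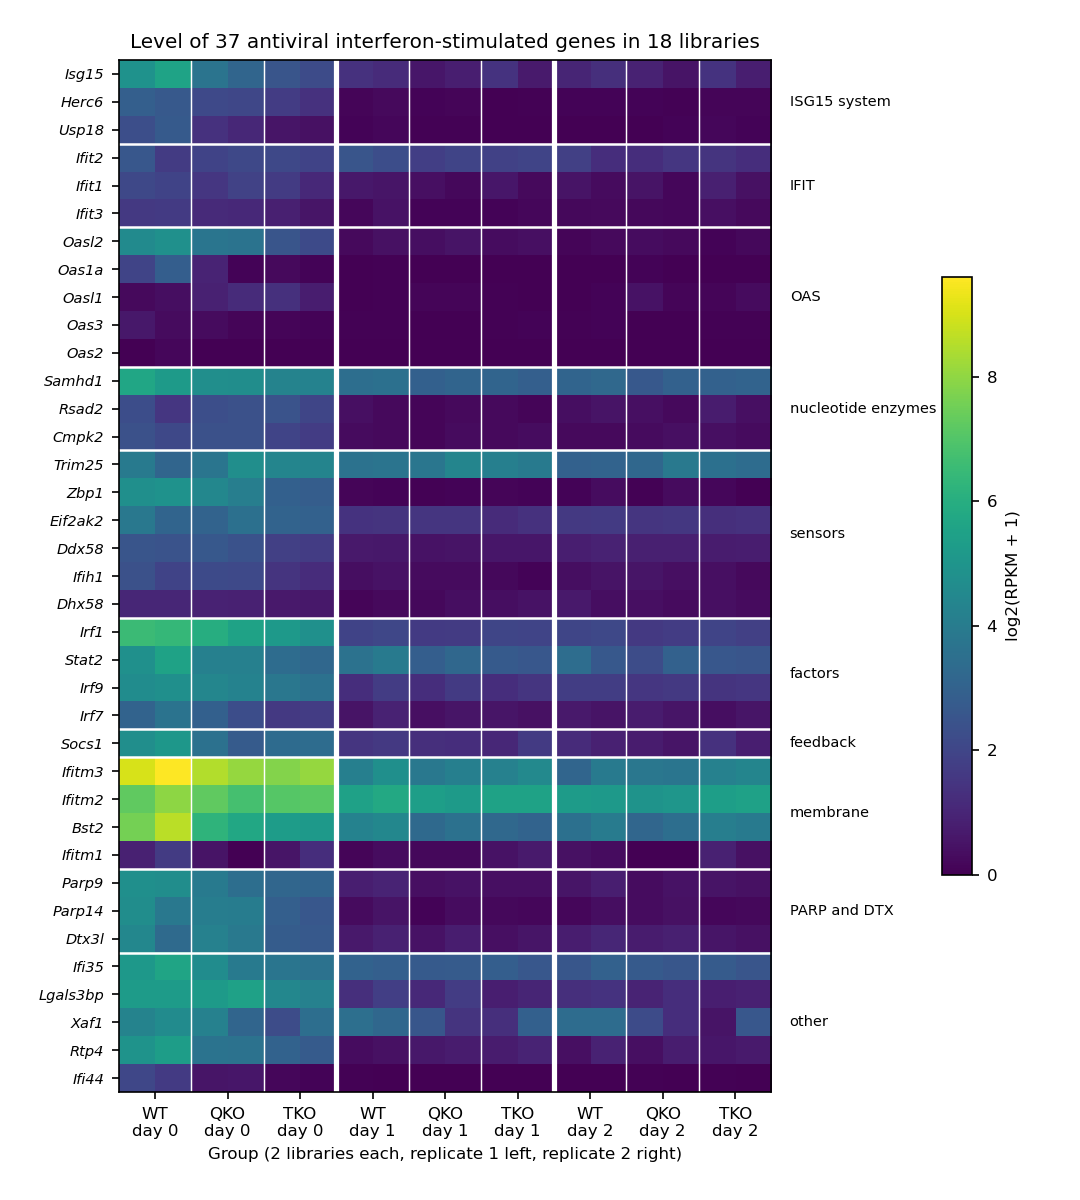
Heat map of log2(RPKM + 1) for the 37 members with a row (grouped by role) in the 18 libraries, ordered by day and, within a day, WT, QKO and TKO, with replicate 1 left of replicate 2. The WT day 0 libraries hold the highest values for most genes, and most rows are dark at days 1 and 2, apart from genes such as Ifitm2, Samhd1 and Trim25.

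The summed level of the 37 genes was 1436 and 2003 RPKM in WT at day 0, 966 and 761 in QKO, and 618 and 638 in TKO. The groups did not overlap, with WT highest and TKO lowest. The mean of TKO was 36.5% of that of WT, and the mean of QKO 50.2%. Ifitm3 (37.7%), Bst2 (16.9%) and Ifitm2 (11.6%) made up most of the WT sum. Without these 3 genes the sums were 573 and 592 in WT, 377 and 334 in QKO, and 219 and 196 in TKO, or 35.7% of WT in TKO and 61.1% in QKO.

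**Figure D2:**
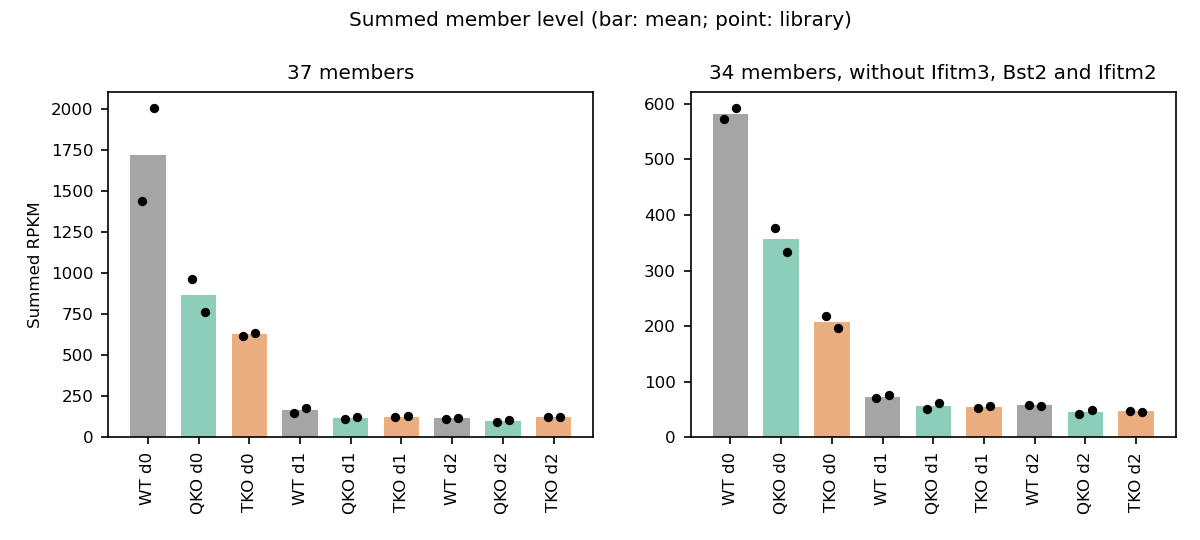
Summed RPKM of the members in each group (bars are means of 2 libraries, points are libraries, the axis starts at 0), for all 37 genes on the left and without the 3 most abundant on the right. At day 0 both panels run from WT down to TKO, and all groups of days 1 and 2 lie below every day 0 group.

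At the level of single libraries, both TKO libraries were below both WT libraries at day 0 for 32 of 37 members (28.9% of tested genes), and both QKO libraries for 24 of 37 (29.6%). Both TKO libraries were above both WT libraries for Oasl1 and Trim25 (29.8% of tested genes), and both QKO libraries for Oasl1 and Rsad2 (28.2%). The full order, with both WT libraries above both QKO libraries and these above both TKO libraries, was seen in 18 of 37 members, against 3.31% of all tested genes.

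The ISG15 system attaches the ubiquitin-like protein ISG15 to other proteins. All 3 of its listed genes fell in both mutants. Isg15, the modifier itself, stood at 28.7 and 46.6 RPKM in WT, 11.8 and 7.82 in QKO and 4.85 and 3.62 in TKO. No libraries of different genotypes overlapped, and the log2 fold change was -2.85 ± 0.30 in TKO (limma adjusted p = 1.79e-05) and -1.83 ± 0.30 in QKO (0.000663). Usp18, the protease that removes ISG15 and dampens the type I receptor, stood at 4.00 and 5.54 RPKM in WT, 1.61 and 1.08 in QKO, and 0.467 and 0.333 in TKO. It fell by 2.03 on the log2 scale in TKO and by 1.30 in QKO. The level was low enough in TKO, where the libraries held 43 and 29 reads of Usp18, for the scale to matter, and on the recovered reads the log2 fold change was -3.55. Herc6, the main ISG15 ligase of the mouse, stood at 6.52 and 5.49 RPKM in WT, 3.37 and 3.14 in QKO and 2.28 and 1.56 in TKO, with the same order of genotypes (log2 fold changes -1.27 and -0.72 in TKO and QKO).

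The IFIT genes, whose proteins bind viral RNA, moved less. Ifit3 stood at 2.03 and 2.07 RPKM in WT, 1.23 and 1.16 in QKO and 0.781 and 0.449 in TKO, and it fell in both mutants (-0.92 ± 0.13 and -0.47 ± 0.13), although the QKO call ended without WT day 0 replicate 2 (adjusted p = 0.0516). Ifit1 stood at 3.24 and 2.79 RPKM in WT, 1.88 and 2.70 in QKO, and 2.17 and 1.14 in TKO, and with log2 fold changes of -0.62 (limma adjusted p = 0.0502) and -0.30 it passed the test in neither. Ifit2 stood at 5.12 and 2.17 RPKM in WT, and the QKO (2.82 and 3.18) and TKO libraries (3.25 and 2.80) lay between these values. Ifit2 and Ifit3 are neighbours on chromosome 19, and Ifit3 has a close copy, Ifit3b, so reads may have been split between them.

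The OAS family is named for enzymes that make the messenger that activates RNase L, and not every member has that activity. Oasl2 stood at 23.3 and 27.3 RPKM in WT, 12.2 and 11.5 in QKO and 4.82 and 3.51 in TKO. The libraries of a genotype lay close together and the genotypes far apart, with log2 fold changes of -2.36 ± 0.15 in TKO (limma adjusted p = 1.57e-07) and -1.03 ± 0.15 in QKO (0.000278). Oas1a stood at 2.89 and 6.26 RPKM in WT, at 0.938 and 0.0809 in QKO, and at 0.183 and 0.0539 in TKO. Both mutants were below WT (-2.25 and -1.88), and QKO replicate 2 held 8 reads where QKO replicate 1 held 88. Oas1a passed the filter only through WT day 0, the group where it was high. Close copies of Oas1a, such as Oas1g, make the level of any single gene of that cluster uncertain. Oas3 ran from 0.229 to 0.521 RPKM in WT and was at most 0.211 in QKO and 0.0864 in TKO, and Oas2 was at most 0.112 RPKM in any library.

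Oasl1 went the other way. In the mouse its protein restrains the translation of Irf7. It stood at 0.169 and 0.280 RPKM in WT (22 and 36 reads), 0.845 and 1.25 in QKO (89 and 139 reads), and 1.53 and 0.720 in TKO (168 and 75 reads). All 4 mutant libraries lay above both WT libraries. Oasl1 reached 1 RPKM only in QKO and TKO libraries of day 0, so it passed the filter through the groups where it was high. The log2 fold change was 0.77 ± 0.17 in TKO (limma adjusted p = 0.00563) and 0.74 ± 0.17 in QKO (0.00537), and 2.26 and 2.23 on the recovered reads. With no filter on low values both calls held (limma adjusted p = 0.00647 in TKO and 0.00626 in QKO). Both calls ended under quantile normalization, and that in TKO ended without TKO day 0 replicate 1 (0.49, adjusted p = 0.0726). Oasl1 and Oasl2 are neighbours on chromosome 5 and parted in direction.

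**Figure D3:**
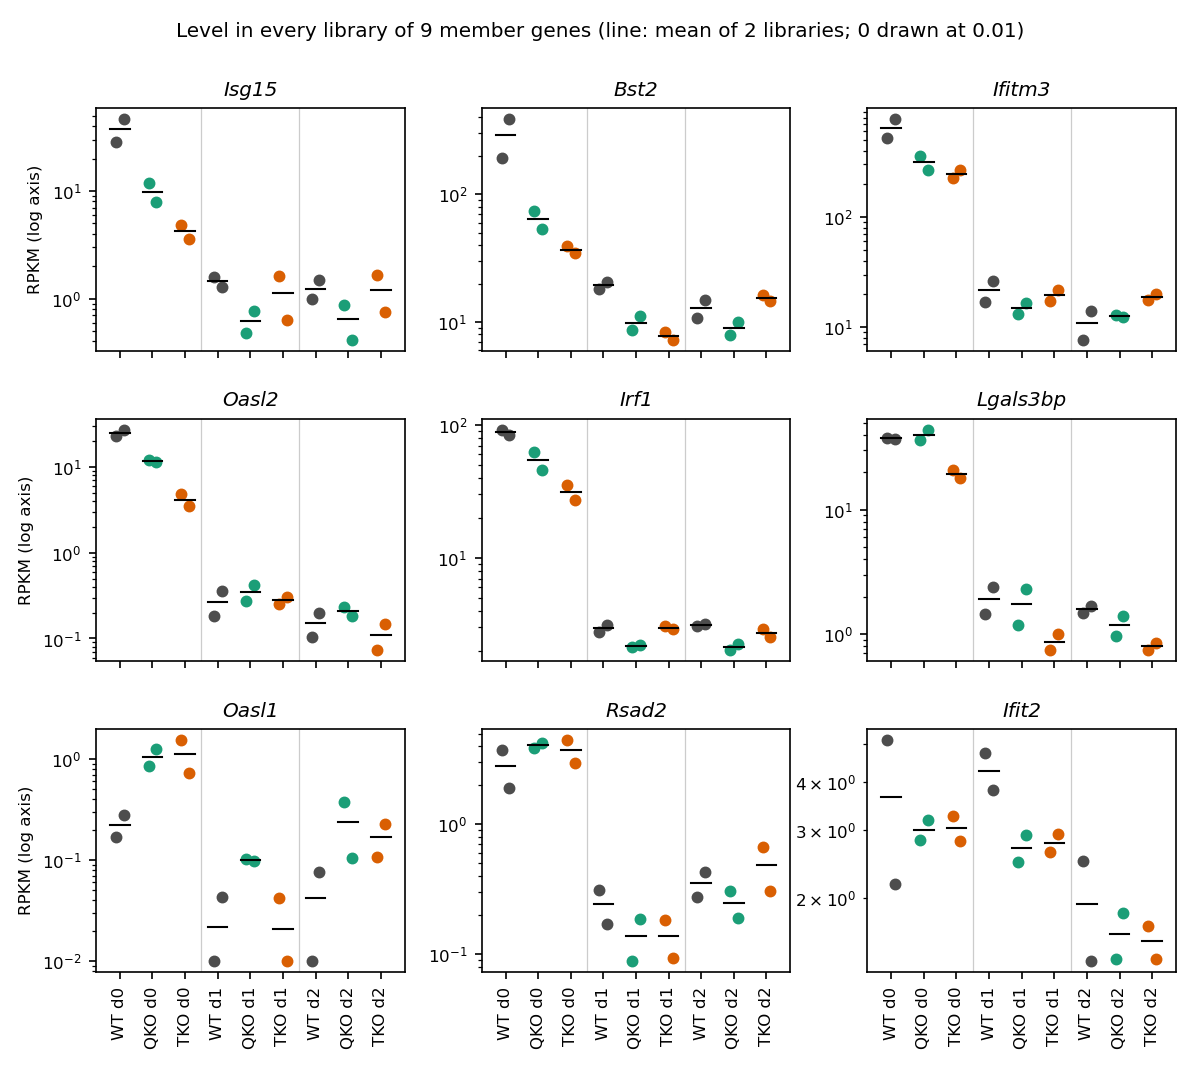
RPKM on a log axis of 9 members in every library (points, colored by genotype, with a line at the mean of each group and values of 0 drawn at 0.01) by genotype and day (d0 to d2). Isg15, Bst2, Oasl2 and Irf1 step down from WT through QKO to TKO at day 0, Lgals3bp is lower in TKO, Oasl1 is higher in both mutants, and the WT libraries of Ifit2 lie on either side of the mutants.

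Among the enzymes of nucleotide metabolism, Samhd1, which hydrolyses the building blocks of DNA, fell in both mutants. It stood at 50.9 and 36.2 RPKM in WT, 26.0 and 25.1 in QKO and 18.4 and 18 in TKO (-1.19 ± 0.16 in TKO and -0.72 ± 0.16 in QKO). Rsad2 (viperin), which makes a chain-terminating nucleotide, stood at 3.76 and 1.89 RPKM in WT, 3.89 and 4.24 in QKO and 4.43 and 2.98 in TKO. It passed the test in neither mutant, with values of 0.33 and 0.45. Its neighbour on chromosome 12, the mitochondrial nucleotide kinase gene Cmpk2, stood at 4.27 and 3.28 RPKM in WT, 4.17 and 4.26 in QKO, and 2.96 and 2.23 in TKO. Cmpk2 fell in TKO by 0.41 on the log2 scale (adjusted p = 0.0448), and 12 of the 18 fits without 1 library lost that call, with adjusted p of 0.163 without WT day 0 replicate 1 and 0.316 without TKO day 0 replicate 2.

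Of 6 genes of nucleic acid sensing, 4 fell in TKO, Zbp1, Ifih1, Ddx58 and Dhx58 (10.2% of all tested genes fell), and 1 fell in QKO, Zbp1 (18.1%). The TKO call of Dhx58 (-0.40) ended without WT day 0 replicate 2 (adjusted p = 0.112), TKO day 0 replicate 1 (0.0968) or TKO day 0 replicate 2 (0.149). Zbp1, a sensor of Z-form nucleic acids that can trigger cell death, stood at 26.5 and 28.4 RPKM in WT, 20.8 and 16.1 in QKO, and 6.68 and 6.07 in TKO (-1.95 ± 0.15 in TKO and -0.56 ± 0.15 in QKO). Ddx58, which encodes the RNA sensor RIG-I, stood at 4.82 and 4.51 RPKM in WT, 5.19 and 4.39 in QKO, and 2.53 and 2.29 in TKO. Ifih1, which encodes the long-RNA sensor MDA5, stood at 4.25 and 2.82 RPKM in WT, 3.41 and 3.39 in QKO, and 1.69 and 1.33 in TKO. For both genes the QKO libraries overlapped or lay within the WT range (0.03 and -0.02), and the TKO libraries lay below all others (-0.73 and -0.84). The RNA-activated kinase gene Eif2ak2 stood at 13.2 and 7.56 RPKM in WT, 7.26 and 10.8 in QKO, and 7.33 and 6.94 in TKO, and passed the test in neither mutant (-0.44 and -0.16).

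Of the 4 transcription factor genes, all fell in TKO (10.2% of all tested genes fell) and 3 in QKO (18.1%), and the feedback gene Socs1 fell in both. Irf1, an activator of interferon target genes, stood at 92.1 and 83.8 RPKM in WT, 62.8 and 45.6 in QKO and 35.6 and 27.2 in TKO (-1.47 ± 0.16 in TKO and -0.70 ± 0.16 in QKO). Without QKO day 0 replicate 2 the log2 fold change of Irf1 in QKO was -0.48, and its QKO call ended. Stat2 stood at 27.6 and 45.4 RPKM in WT, 17.3 and 17 in QKO, and 9.42 and 8.33 in TKO, and fell by 1.89 and 1.01. Its partner Irf9 stood at 24.4 and 26.2 RPKM in WT, 20.2 and 18.3 in QKO, and 13.1 and 10.9 in TKO. Irf9 fell in TKO (-1.02 ± 0.17) and did not pass the test in QKO (-0.37, adjusted p = 0.104), although no libraries overlapped. Irf7, the amplifier of type I interferon production, fell by 1.72 in TKO and by 0.76 in QKO. The QKO calls of Stat2 (-0.99) and Irf7 (-0.43) likewise ended without QKO day 0 replicate 2. Socs1, an inhibitor of JAK kinases that is itself induced by them, stood at 26.0 and 32.5 RPKM in WT, 10.9 and 5.76 in QKO and 9.29 and 9.45 in TKO. Here the mutants overlapped, and the log2 fold change was -1.53 ± 0.26 in TKO and -1.75 ± 0.26 in QKO.

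The genes of membrane proteins that block virus entry or release included those with the highest mean levels of the list, Ifitm3, Ifitm2 and Bst2. Bst2 (tetherin), which ties budding virus to the membrane, stood at 193 and 388 RPKM in WT, 74.2 and 53.1 in QKO, and 39 and 34.5 in TKO. With -2.86 ± 0.27 in TKO (limma adjusted p = 7.7e-06) and -2.11 ± 0.27 in QKO (0.000126) it showed the largest decrease among the tested members in both comparisons on this scale. Ifitm3, which blocks virus entry by fusion, stood at 519 and 776 RPKM in WT, 360 and 267 in QKO, and 227 and 268 in TKO. It fell by 1.36 in TKO and, at -1.03 ± 0.28, in QKO, and the latter call ended without WT day 0 replicate 2 (-0.74, adjusted p = 0.114) or QKO day 0 replicate 2 (-0.82, 0.0959). Its neighbour Ifitm2 stood at 152 and 247 RPKM in WT, 154 and 107 in QKO and 134 and 139 in TKO. The QKO and WT libraries of Ifitm2 overlapped, and its call in QKO (-0.59, adjusted p = 0.0411) ended in 12 of the 18 fits without 1 library, among them WT day 0 replicate 2 (-0.24, adjusted p = 0.387). Ifitm1, at most 2.15 RPKM in any library, fell in QKO (-1.02) and was at -0.39 in TKO. The IFITM genes lie side by side on chromosome 7 and resemble each other, so reads may have been shared among them.

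A trio of neighbours on chromosome 16, Parp9, Dtx3l and Parp14, encodes ADP-ribosyltransferases and a ubiquitin ligase of the interferon response. Parp9 stood at 26.7 and 25.4 RPKM in WT, 14.1 and 10.2 in QKO and 7.96 and 7.46 in TKO, and fell in both (-1.64 and -1.06). Parp14 stood at 24.9 and 13.2 RPKM in WT, 15.9 and 15.5 in QKO, and 6.57 and 5.07 in TKO. Dtx3l stood at 20.5 and 9.07 RPKM in WT, 17.5 and 13.6 in QKO, and 5.97 and 5.5 in TKO. For Parp14 and Dtx3l the QKO libraries lay inside the WT range (-0.20 and 0.16), and TKO fell (-1.5 and -1.13), although the TKO call of Dtx3l ended without TKO day 0 replicate 2 (-1.08, adjusted p = 0.0675).

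Of the other effectors, Ifi35, a partner of the STAT-binding protein NMI, stood at 33.8 and 47.5 RPKM in WT, 24.7 and 14.1 in QKO, and 12.2 and 11.2 in TKO (-1.70 and -1.06). Lgals3bp, a secreted glycoprotein gene, stood at 37.7 and 37.2 RPKM in WT, 36.3 and 43.9 in QKO, and 20.7 and 17.8 in TKO. It fell in TKO (-0.93 ± 0.21), a call that ended without TKO day 0 replicate 2 (adjusted p = 0.0694), and was at 0.09 in QKO, whose libraries lay on either side of WT. Rtp4 and Ifi44 fell in both mutants, by 2.26 and 1.51 for Rtp4 and by 1.69 and 1.28 for Ifi44. The reads of Ifi44 were few in TKO, 20 and 11, and its log2 fold change there was -4.60 on the recovered reads. Ifi44 also passed the filter only through WT day 0.

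**Figure D4:**
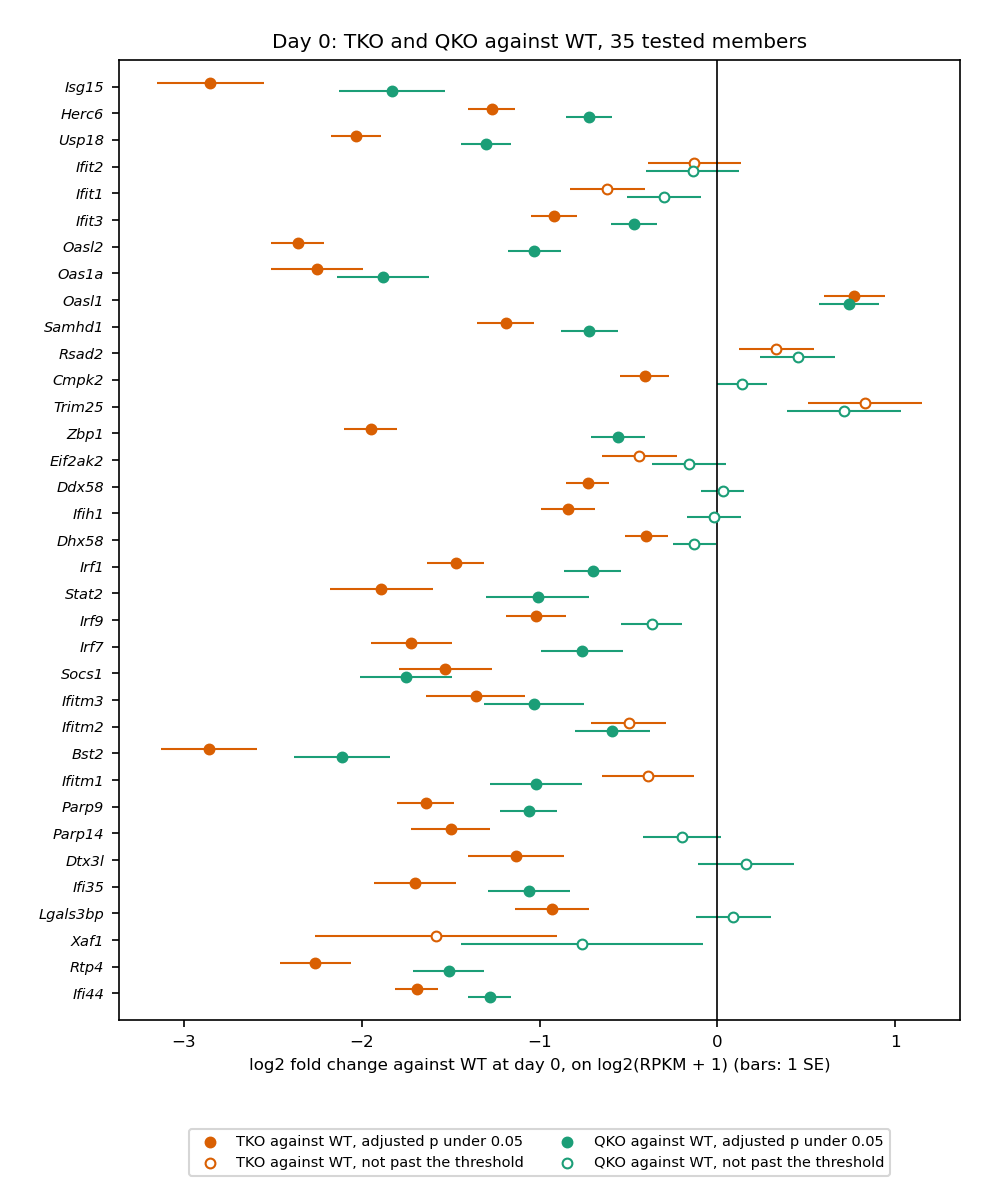
Log2 fold change on log2(RPKM + 1) with bars of 1 SE for the 35 tested members at day 0, TKO against WT (orange) and QKO against WT (green), filled where the adjusted p was below 0.05. For most genes the TKO point lies left of the QKO point, and only Oasl1 has filled points right of 0.

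Xaf1 and Trim25 parted the libraries of a genotype as well as the genotypes. Xaf1, which encodes a binding partner of the apoptosis inhibitor XIAP, was at 3.74 and 10.2 RPKM in the TKO day 0 libraries, 1.43 and 6.70 at day 1, and 0.439 and 5.04 at day 2. In QKO it was at 17.7 and 7.86, then 4.89 and 1.71, then 3.55 and 1.42. TKO replicate 1 was thus below TKO replicate 2 on each day, and QKO replicate 1 above QKO replicate 2 on each day. The WT libraries were at 18.4 and 23.7 RPKM at day 0 and at 8.34 to 10.5 afterwards, above all mutant libraries of the same day. With an SE of 0.68 the day 0 log2 fold change of -1.58 in TKO did not pass the test (adjusted p = 0.104), nor did -0.76 in QKO (0.398). Trim25, a ubiquitin ligase gene of the RIG-I pathway, has 2 rows in the table. In the row with the higher mean, QKO replicate 1 and 2 were at 12.4 and 25.5 RPKM at day 0, 12.5 and 19.6 at day 1 and 8.12 and 13.7 at day 2. In the other row their order was reversed, at 11.2 and 5.97, then 10.3 and 4.53, then 7.49 and 3.62. The table does not say how the 2 rows differ, and the level of Trim25 is uncertain for that reason.

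**Figure D5:**
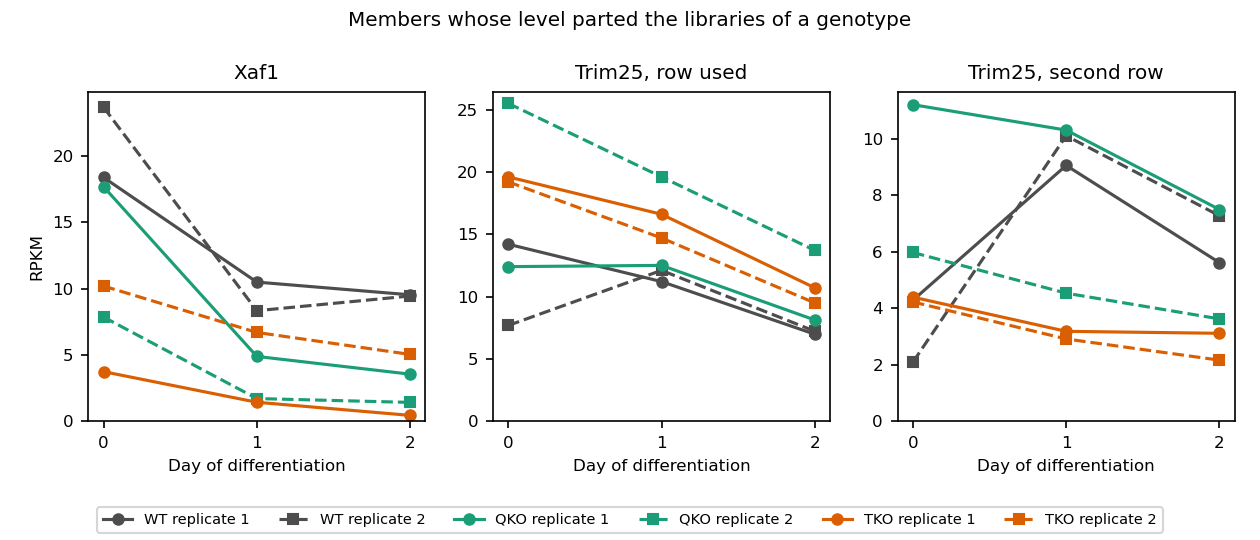
RPKM of Xaf1 and of both rows of Trim25 against day of differentiation (colors are genotypes, solid lines with circles are replicate 1 and dashed lines with squares are replicate 2 of the labels, and lines join libraries with the same number, which the labels do not tie to a shared culture). For Xaf1 and Trim25 the QKO replicates stay apart from day 0 to day 2, and their order in the first Trim25 row is reversed in the second.

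The Dmwd mutation is what separates QKO from TKO by design, and QKO cells held more antiviral RNA than TKO cells at day 0. Of the 35 tested members 11 were higher in QKO and none lower, against 1.53% and 1.23% of all tested genes, with a member median of 0.58 (all tested genes -0.03). The 11 were Usp18, Herc6, Oasl2, Zbp1, Ifih1, Ddx58, Irf1, Irf7, Parp14, Dtx3l and Lgals3bp. The largest differences were those of Zbp1 (1.39 ± 0.15, limma adjusted p = 0.000214), Oasl2 (1.33 ± 0.15, 0.000309), Parp14 (1.30 ± 0.22, 0.00746) and Dtx3l (1.29 ± 0.27, 0.0216). Socs1 (-0.21), Ifitm1 (-0.63), Ifitm2 (-0.08) and Trim25 (-0.12) were among those with values below 0, and none of these passed the test. Both TKO libraries lay below both QKO libraries for 25 of 37 members, against 23.4% of tested genes. The number of calls moved with the libraries and the fit. It was 2 without TKO day 0 replicate 2, 3 without QKO day 0 replicate 1, 7 without TKO day 0 replicate 1, 20 without either WT day 0 library, and 0 when only the 6 day 0 libraries were fitted.

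The same holds for the counts against WT in part. Those of TKO stayed between 23 and 30 when any library was left out. In QKO 14 members fell and 1 rose without WT day 0 replicate 2, and 13 fell and 1 rose without QKO day 0 replicate 2. The genes that lost the QKO call in both cases were Zbp1, Irf7, Stat2, Ifitm1, Ifitm2 and Ifitm3. A fit of the 6 day 0 libraries alone called 9 members in QKO against WT.

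Upstream of these genes, no interferon ligand was measured at a level that passed the filter. Of 15 ligand genes, 12 were at 0 RPKM in all 18 libraries, among them Ifnb1 and Ifng, and a count of 0 allows an expected count of up to 3 reads in a library. The highest value was 0.588 RPKM, in Ifnz, a gene of the limitin family. Of 10 tested genes of receptors, JAK kinases and STATs, 6 rose in QKO at day 0 and none fell, against 17.3% and 18.1% of all tested genes. In TKO none rose and 1 fell, against 12.8% and 10.2%. Both type I receptor genes were measured at similar levels, Ifnar1 at 10.9 and 9.79 RPKM in WT, 13.9 and 13.0 in QKO and 10.8 and 10.3 in TKO, and Ifnar2 at 9.66 and 11, 9.13 and 8.36, and 7.05 and 7.76. Ifnar1 rose in QKO (0.35, adjusted p = 0.0396) and was at 0.03 in TKO. Ifnar2 passed the test in neither (-0.22 in QKO, and -0.43 with adjusted p = 0.056 in TKO). The interferon-gamma receptor genes rose in QKO, Ifngr1 by 0.52 and Ifngr2 by 0.61, and were at 0.33 and 0.32 in TKO. Stat3 (0.93), Jak2 (0.65) and Jak1 (0.52) were the other 3 that rose in QKO.

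Among 5 other IRF genes tested, Irf8 was the single call in TKO at day 0, where 10.2% of all tested genes fell. This factor of myeloid cells stood at 19.1 and 14.9 RPKM in WT, 21.1 and 13.1 in QKO and 6.53 and 4.36 in TKO (-1.49 ± 0.20). Irf5 (-0.92) and Irf3 (-0.58) fell in QKO, where 18.1% of all tested genes fell. Of 12 tested genes of sensing and adaptors, 2 rose in TKO, close to the 12.8% of all tested genes, Unc93b1 (0.83), which carries nucleic acid receptors to endosomes, and Traf6 (0.56). In QKO 4 rose, against 17.3% of all tested genes, and 1, the kinase gene Tbk1 (-0.42), fell, against 18.1%. The risen genes were Unc93b1 (1.36), Tmem173 (STING, 0.80), Mavs (0.64) and Traf6 (0.61).

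Of 11 tested negative regulators 2 rose and 1 fell in TKO, close to the shares of all tested genes (12.8% and 10.2%), and 5 rose and 2 fell in QKO (17.3% and 18.1% of all tested genes). Nlrx1 and Ptpn6 rose in both (0.90 and 0.80 in TKO, 1.03 and 1.05 in QKO), as did Tnfaip3 in QKO (0.81). Nlrc5 fell in both (-1.67 and -0.77) and is known mainly as an activator of MHC class I genes. A wider list of 31 other tested interferon-stimulated genes had 24 that fell and 1 that rose in TKO, against 10.2% and 12.8% of all tested genes. In QKO 14 of them fell and 1 rose, against 18.1% and 17.3%, and the medians were -1.08 in TKO and -0.44 in QKO. Ifi47 (-2.49), Ube2l6 (-2.46), Ifi205 (-1.96) and Ifi203 (-1.88) fell most in TKO, and Ifi205 (-1.20), Ifi47 (-1.15), Uba7 (-1.10) and Ube2l6 (-1.04) in QKO. Ube2l6 and Uba7 encode the conjugating and activating enzymes of ISG15. Ddx60 was the gene that rose in both (0.72 and 0.78).

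Markers of other cells were compared in the same samples. The summed level of 16 immune cell markers was 3.11 and 5.02 RPKM in WT at day 0, 6.12 and 6.32 in QKO, and 10.8 and 10.4 in TKO. Laptm5 made up most of the TKO sum, at 1.18 and 1.26 RPKM in WT, 3.18 and 2.83 in QKO and 6.46 and 7.75 in TKO. It was the 1 of 4 tested immune markers that rose in TKO, with 0 in QKO, against 12.8% and 17.3% of all tested genes. The sum of 5 endothelial markers was 2.02 and 1.29 RPKM in WT, 0.701 and 0.541 in QKO, and 0.712 and 0.614 in TKO, so it was higher in WT. The sums of 7 fibroblast markers were 32.5 and 32.8 RPKM in WT, 89.7 and 118 in QKO, and 94.7 and 94.2 in TKO. The 2 tested rose in both mutants, against 12.8% of all tested genes in TKO and 17.3% in QKO. The defining fibroblast markers Pdgfra, Dcn and Lum stayed below 0.5 RPKM in all libraries. Muscle lineage markers summed to 1748 and 1681 RPKM in WT, 3551 and 3165 in QKO, and 3306 and 4118 in TKO. The part of these markers in the antiviral result was not tested.

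When MuSCs were moved to differentiation medium, the antiviral genes dropped in every genotype. In WT cells 31 of the 35 tested members fell by day 1 and 32 by day 2, and none rose. Among all tested genes 46.1% fell and 20.4% rose by day 1, and 41.7% fell and 24.9% rose by day 2. The median over members was -2.40 at day 2, and that over all tested genes -0.24. Median-ratio scaling, which divides a library by the median ratio of its genes to their geometric means over the libraries, moved the latter to -0.01. With it the shares of all genes that fell and rose by day 2 went from 41.7% and 24.9% to 32.5% and 32.3%, with 31 members lower. The WT day 0 libraries also differed from the later WT libraries in Hox genes, and the part of that difference in the WT drop was not tested. In TKO cells 27 members fell by day 1 and 31 by day 2, and none rose, against 42.1% and 38.2% of all tested genes that fell and 15.8% and 21.1% that rose, and with that scaling 25 members and 29.5% of genes fell by day 2. In QKO cells 31 fell by each day and none rose, against 42.4% and 42.9% that fell and 15.4% and 17.3% that rose, and with the scaling 30 members and 29.7% fell by day 2. Since 19 of the 35 passed the filter through day 0 groups alone, these members had to differ by day, and 16 reached 1 RPKM in some library of day 1 or 2.

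All 4 libraries of days 1 and 2 lay below both day 0 libraries for 34 of 37 members in WT (43.8% of tested genes), 33 in TKO (51.4%) and 33 in QKO (49.0%). Between days 1 and 2 of WT cells 2 members fell, against 5% of all tested genes that fell and 10.4% that rose. None passed in TKO, where 4.73% of all tested genes rose and 1.89% fell, or in QKO, with 1.42% and 1.62% (at an unadjusted p below 0.05, 2 members in each). The 2 members that fell in WT were Ifitm3 (-0.95 ± 0.28) and Ifit2 (-0.87 ± 0.26). Ifitm3 went in WT from 519 and 776 RPKM at day 0 through 16.8 and 26.5 at day 1 to 7.69 and 14.1 at day 2, a log2 fold change of -5.80 ± 0.28 from day 0 to day 2. Ifit2 went from 5.12 and 2.17 RPKM through 4.75 and 3.80 to 2.49 and 1.37, so that its day 1 libraries lay inside the day 0 range.

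At day 2 the tested members stood at a median of 6.02% of their day 0 mean in WT, 6.77% in QKO and 17.6% in TKO. In WT 21 of the 35 were below 10% and 4 above 25%, namely Ifit2, Dhx58, Trim25 and Xaf1. In TKO 11 were below 10% and 14 above 25%, and these 14 held Isg15 and Bst2, whose TKO day 0 levels were low. The summed level of all 37 genes at day 2 was 6.83% of day 0 in WT, 11.3% in QKO and 19.6% in TKO. Irf1 showed the drop at a high level, and fell in WT from 92.1 and 83.8 RPKM to 3.06 and 3.18 (-4.43 ± 0.16). Some members stayed measurable in differentiating cells, with Ifitm2 at 34.9 and 37.5 RPKM and Samhd1 at 7.62 and 8.38 in the WT day 2 libraries.

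At days 1 and 2 few or no members passed the test between genotypes. At day 1, 1 member was lower in TKO than in WT and none higher, against 0.841% and 1.24% of all tested genes, and in QKO no member passed, with 1.43% of all tested genes higher and 1.33% lower (4 at an unadjusted p below 0.05, and 0 by limma voom on recovered reads). The member in TKO was Bst2, at 18.1 and 20.7 RPKM in WT, 8.62 and 11.1 in QKO, and 8.4 and 7.27 in TKO. The mutants lay below WT without overlap (-1.21 ± 0.27, adjusted p = 0.0388 in TKO, and -0.91, 0.0886 in QKO), but limma voom on the recovered reads gave no call. At day 2 no member passed in TKO or QKO, with 3 and 2 at an unadjusted p below 0.05. Of all tested genes 0.0673% were higher and 0.0421% lower in TKO, and 0.0673% higher and 0.278% lower in QKO. Levels were low by then, and 14 members reached 1 RPKM in both WT day 2 libraries, against 33 at day 0. Between QKO and TKO no member passed at day 1 or day 2 (1 and 3 at an unadjusted p below 0.05). Of all tested genes 0.0925% were higher in QKO and 0.16% lower at day 1, and 0.109% and 0.631% at day 2.

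Whether the difference between mutant and WT itself changed with the day was tested as an interaction. Each of these tests includes the WT day 0 libraries, whose Hox genes differed from those of the later WT libraries. From day 0 to day 1 the difference moved up for 19 members in TKO and 7 in QKO and down for none, against 3.68% up and 5.66% down of all tested genes in TKO and 4.81% and 6.16% in QKO. From day 0 to day 2 it moved up for 20 members in TKO and 11 in QKO and down for none, against 3.42% and 5.1% of all tested genes in TKO and 4.28% and 8.39% in QKO. These counts depended on the scale, since on the recovered reads they were 4 and 1 at day 1 and 7 and 0 at day 2.

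At day 2 Bst2 stood at 10.8 and 14.9 RPKM in WT, 7.95 and 9.96 in QKO and 16.2 and 14.7 in TKO, so TKO was no longer the lowest. Isg15 stood at 1 and 1.48 RPKM in WT, 0.879 and 0.416 in QKO and 1.66 and 0.750 in TKO, and all genotypes overlapped apart from WT and QKO. Lgals3bp stood at 1.48 and 1.68 RPKM in WT, 0.964 and 1.39 in QKO and 0.747 and 0.854 in TKO, and ran from WT through QKO to TKO without overlap, as did Eif2ak2, an order that neither gene showed at day 0 or day 1. These 2 were the only members with WT above QKO above TKO at day 2, against 0.429% of tested genes, and at day 1 there were 5, Usp18, Ifih1, Stat2, Bst2 and Parp9 (2.53%).

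Members with and without an ISRE core were set side by side. In TKO at day 0, 9 of 13 tested members with the core fell (median -0.92), and 11 of 16 without it (median -1.16). In QKO 8 of 13 and 8 of 16 fell. By day 2 of WT cells all 13 with the core had fallen (median -2.14), and 13 of 16 without it (median -2.44). Isg15, with 3 overlapping cores, and Bst2, with 2, were among the members that fell most at day 0, while Rsad2, with the core printed above, was at 0.33 and 0.45. A match describes the sequence and says nothing of binding.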

How the data were processed

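Total RNA of 18 MuSC libraries was sequenced by the authors on an Illumina instrument, aligned to the protein-coding genes of GRCm38.p5 with HISAT2 2.0.5, and deposited as RPKM in a table of the whole series. Whether counting used strand, and how reads shared by genes were assigned, is not given in the sources used here. Groups were taken from the sample titles. Of 22013 rows, 1401 that shared a symbol with a row of higher mean were left out. Genes with at least 1 RPKM in at least 2 libraries were tested with limma 3.58.1 (R 4.3.3, trend and robust moderation) on log2(RPKM + 1), with 22 contrasts of 9 group means. The test was checked on simulated data with known changes.

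Whole reads were recovered from the steps between RPKM values. At a tolerance of 0.02 of a read, 16537 of 16548 rows (99.9%) came out whole in every library, against 1 of 1000 rows moved at random, and limma voom was run on these reads. Alternatives were pseudocounts of 0.1 and 0.5, other filters and scalings, removal of a trend by gene length, a 2-fold minimum, a replicate block, a fit of only the libraries of a day or genotype, and leaving out each library. The precision of low values is limited by counting.

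The members and lists were chosen with earlier results of these data known. All members could be named. Values per library were given for up to 3 members of each role with the highest mean, and for members whose call at day 0 differed from most of their role. Of other lists, up to 4 called genes with the largest change were named, and always the interferon receptor genes. Some results are not reported here. Promoters came from RefSeq (GRCm38.p6).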

Additional observations from a re-analysis of the deposited data

Results flagged for a closer look

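The difference between mutant and WT cells was itself tested for a change with the day. Between day 0 and day 1, 19 members had a smaller deficit in TKO (3.68% of all tested genes changed in that direction) and 7 in QKO (4.81%). Between day 0 and day 2 the counts were 20 in TKO (3.42%) and 11 in QKO (4.28%), and in none of the 4 tests did a member change in the other direction. The largest changes in TKO from day 0 to day 2 were those of Bst2 (3.13), Isg15 (2.81) and Oasl2 (2.31), and in QKO those of Oas1a (1.91), Bst2 (1.64) and Rtp4 (1.45), all on log2(RPKM + 1). At days 1 and 2 many of these genes were near or below 1 RPKM, where that scale compresses differences. With limma voom on the recovered reads the 4 counts were 4, 1, 7 and 0, and with a pseudocount of 0.1 they were 9, 2, 13 and 4, in the same order.

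The second row of Trim25, which the comparisons did not use, had a mean of 8.61 RPKM in QKO at day 0. It is singled out because it is a measured signal outside the tested rows. In WT it was at 4.28 and 2.09 RPKM at day 0 and at 9.05 and 10.1 at day 1.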

How the results depend on the processing

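Counts of called members among 35 are given for the settings that moved them by more than 1.5 times, and no named value that passed its test changed sign. With only genes of a mean RPKM of at least 5, which left 16 members, the counts were 13 (TKO against WT, day 0), 12 (QKO against WT, day 0), 0 (TKO against WT, day 1), 3 (QKO against TKO, day 0), 14, 15 and 15 (day 2 against day 0 in WT, TKO and QKO) and 64 over the other contrasts. For QKO against TKO at day 0 the count was 2 with a pseudocount of 0.1, 18 with the gene length trend removed, 5 with a 2-fold minimum and 0 with the day 0 libraries alone. For QKO against WT at day 0 it was 13 with a 2-fold minimum and 9 with the day 0 libraries alone. For TKO against WT at day 1 it was 0 with voom or no filter, 2 with a pseudocount of 0.1, quantile normalization or median-ratio scaling, 3 with the length trend removed and 4 with the day 1 libraries alone, and for QKO against WT at day 1 it was 1 (quantile), 2 (length trend) and 4 (day 1 alone). The cause was not tested. Leaving out 1 library at a time gave 23 to 30 (TKO against WT, day 0), 14 to 24 (QKO against WT, day 0), 0 to 3 and 0 to 2 (TKO and QKO against WT, day 1), 0 to 0 (both at day 2), 2 to 20 (QKO against TKO, day 0), 31 to 32, 24 to 31 and 31 to 34 (day 2 against day 0 in WT, TKO and QKO) and 133 to 175 (other contrasts). Where a group kept 1 library, it was assumed to vary like the others. Deviations of same-numbered libraries correlated at -0.38 to 0.55 between groups, with 0.20, 0.31 and 0.44 among the days of TKO and 0.55 between days 1 and 2 of QKO. The labels do not tie a number to an animal or culture, and the numbers were not used to pair samples. With a replicate block the counts were 27 and 21 (TKO and QKO against WT, day 0), 11 (QKO against TKO, day 0) and 32, 30 and 32 (day 2 against day 0 in WT, TKO and QKO). Differences at days 1 and 2 are limited by low levels and by 2 libraries a group.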
